A study of Mus musculus with 23 samples.

Results

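The genes described here are 40 cell cycle and proliferation genes, measured by bulk RNA sequencing in 23 MC38 tumors. They were taken by symbol from a list of 17 genes of DNA synthesis (S phase) and 23 genes of mitosis, and all 40 were found among the 26869 genes of the count table. MC38 cells derive from a colon carcinoma of a C57BL/6 mouse, and were placed under the skin of female F1 mice aged 8 to 12 weeks. Each host had a C57BL/6J parent and a parent from 1 of 6 lines of the Collaborative Cross, inbred strains bred from mixed founders. Tumors from the F1 hosts of CC001/UncJ, CC002/UncJ and CC075/UncJ formed the responder (R) group, and those from the F1 hosts of CC036/UncJ, CC079/TauUncJ and CC080/TauUncJ formed the nonresponder (NR) group. The class of each line came from the text of the study, since the sample labels give the line only. When a tumor reached 75 to 110 mm3 the host received 1 intraperitoneal dose of 200 µg of either an isotype control antibody (2A3) or an antibody against PD-1 (29F.1A12, aPD1), and the tumor was taken 48 hours later. There were 2 tumors for each line and antibody, except 1 for CC080F1 with aPD1, which left 6 isotype and 6 aPD1 tumors in the R group and 6 isotype and 5 aPD1 tumors in the NR group. All tumors came from the same cancer cell line, so the groups differed in the host and the antibody.

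A dividing cell copies its DNA in S phase and separates the copies in mitosis. At the start of S phase, cyclin E (Ccne1, Ccne2) and the transcription factor E2f1 switch on the genes that license and fire replication origins (Cdc6, Cdt1, the helicase subunits Mcm2 to Mcm7, Cdc45, Gins2) and those that supply nucleotides and hold the polymerase on DNA (Rrm1, Rrm2, Tyms, Pcna). Later, cyclins A and B with Cdk1, the transcription factor Foxm1, the kinases Aurka, Aurkb and Plk1, the spindle checkpoint and the kinesins carry the cell through division. Mki67, which codes for the antigen read by Ki-67 staining, and Top2a, which untangles DNA, are widely used as marks of cycling cells. In a bulk tumor these transcripts come from cancer cells and from any dividing host cell, and fewer dividing cells cannot be told apart from less of the RNA per cell.

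Promoter windows were examined because the S phase and mitosis genes are textbook targets of different transcription factors. RefSeq windows on GRCm38.p6 were matched by symbol for 31 of the 40 genes, 14 of S phase and 17 of mitosis. Mcm7 had more than 1 window, which gave 15 S phase and 17 mitosis windows of the 250 bases before the annotated start. An E2F motif (TTTCCCGC, TTTCGCGC, TTTGCCGC or TTTGGCGC, on either strand) stood in 4 of 15 S phase windows and 1 of 17 mitosis windows, beside 1.86% of the 32851 windows in the table. The cell cycle homology region, bound by the complex that times mitotic genes, was searched as TTTGAA or TTTAAA on either strand. It stood in 11 of 17 mitosis windows and 4 of 15 S phase windows, beside 25.2% of all windows. A CCAAT box, the site of the factor NF-Y, stood in 15 of 17 mitosis and 10 of 15 S phase windows, beside 33.8% of all windows. The windows of the 6 genes below are shown because these genes differed among the host lines in the test described further on, and Foxm1, which also did, had no window in the table. Capitals mark every motif found, and each sequence runs 5′ to 3′ on the strand of its gene: Rrm2 at chr12:24708004-24708253 (plus strand), Mcm3 at chr1:20820313-20820562 (minus), Mcm5 at chr8:75109259-75109508 (plus), Mcm6 at chr1:128359706-128359955 (minus), Plk1 at chr7:122159185-122159434 (plus) and Ccnb2 at chr9:70421555-70421804 (minus).
Rrm2: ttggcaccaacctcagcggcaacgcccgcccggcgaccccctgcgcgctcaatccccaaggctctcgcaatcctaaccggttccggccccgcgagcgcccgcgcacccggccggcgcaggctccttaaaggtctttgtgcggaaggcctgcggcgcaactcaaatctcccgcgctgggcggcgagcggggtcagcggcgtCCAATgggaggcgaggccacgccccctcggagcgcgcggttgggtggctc
Mcm3: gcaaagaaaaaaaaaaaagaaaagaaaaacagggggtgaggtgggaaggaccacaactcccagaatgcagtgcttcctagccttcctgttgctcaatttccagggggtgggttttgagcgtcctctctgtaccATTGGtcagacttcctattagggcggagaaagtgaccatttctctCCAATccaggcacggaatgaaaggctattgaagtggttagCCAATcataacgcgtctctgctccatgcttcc
Mcm5: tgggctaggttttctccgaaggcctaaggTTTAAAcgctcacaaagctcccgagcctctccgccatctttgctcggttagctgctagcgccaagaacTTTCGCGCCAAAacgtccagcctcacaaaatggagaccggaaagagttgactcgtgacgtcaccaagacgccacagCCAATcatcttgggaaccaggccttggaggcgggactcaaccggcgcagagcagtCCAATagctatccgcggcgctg
Mcm6: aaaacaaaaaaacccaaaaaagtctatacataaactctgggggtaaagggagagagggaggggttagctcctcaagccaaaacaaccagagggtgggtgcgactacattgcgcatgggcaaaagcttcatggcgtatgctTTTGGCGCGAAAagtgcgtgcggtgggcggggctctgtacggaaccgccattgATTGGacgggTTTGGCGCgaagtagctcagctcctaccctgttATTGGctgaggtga
Plk1: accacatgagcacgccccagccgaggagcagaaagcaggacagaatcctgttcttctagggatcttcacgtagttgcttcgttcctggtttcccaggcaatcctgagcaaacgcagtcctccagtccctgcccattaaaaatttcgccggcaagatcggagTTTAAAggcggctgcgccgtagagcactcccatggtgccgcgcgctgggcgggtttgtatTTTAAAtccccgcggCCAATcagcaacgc
Ccnb2: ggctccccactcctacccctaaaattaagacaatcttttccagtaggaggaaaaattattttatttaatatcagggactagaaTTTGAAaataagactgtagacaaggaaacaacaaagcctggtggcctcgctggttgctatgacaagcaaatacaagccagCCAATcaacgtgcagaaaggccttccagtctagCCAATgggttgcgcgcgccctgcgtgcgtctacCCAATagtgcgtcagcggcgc
In the window of Mcm5 a pair of overlapping E2F motifs on opposite strands formed 1 run of capitals and Mcm6 carried such a run and another E2F motif. Rrm2 and Mcm3 had CCAAT boxes and none of the E2F letters searched, while Plk1 and Ccnb2 had the homology region beside CCAAT boxes. These are letter matches and were not tested as binding sites.

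The libraries held 14494014 to 71868253 counts, with a median of 42327589. A group of 17 libraries lay above 25000000 counts and 6 below it, 2 of them R and 4 NR. The 40 genes took 0.494% to 0.664% of the counts of a library, and the lowest count of any of them in any tumor was 198, for Cdc25c. The part of counting error in the spread between tumors was not measured for single genes. Shisal2b, the marker that the study used for MC38 cells, was detected in every tumor, at 460 to 1133 normalized counts in R and 523 to 1138 in NR tumors. The epithelial markers Epcam, Krt8, Krt18, Krt19 and Cdh1 summed to 149 to 879 normalized counts, and 3 of the 5 were at 0 in at least 1 tumor. Values called normalized counts below were divided by the size factor of each library.

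All 40 genes were expressed in every tumor, and their levels were alike from tumor to tumor. Per kilobase of exon, Top2a was highest, at 4347 normalized counts, followed by Pcna at 3120, Mcm3 at 2259, Rrm2 at 2212 and Mki67 at 2180. Cdc25c, the phosphatase that activates Cdk1, was lowest at 129, and Cdc6, the origin licensing factor, stood at 293. The highest tumor exceeded the lowest by 1.24-fold for Cdk1 and 1.75-fold for Rrm2, the extremes among the 40, with a median of 1.41-fold. The coefficient of variation over the 23 tumors had a median of 8.37%, beside 9.13% for the 8423 genes with a mean at least that of Cdc25c. Ccne2, at 14%, and Rrm2, at 13.9%, varied most, and Cdk1, at 5.55%, least. Within the 11 pairs of tumors that shared line and antibody, the median gene differed by 0.059 to 0.195 on the log2 scale. The largest of these values belonged to the CC036F1 isotype pair, in which tumor 1 was above tumor 2 for 37 of the 40 genes. Other pairs were uneven too: tumor 1 was above tumor 2 for 6 genes in the CC079F1 aPD1 pair. It was so for 11 in the CC002F1 aPD1 pair and 30 in the CC075F1 isotype pair.

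Over the 23 tumors most of the genes moved together. Pearson correlations of log2 values had a median of 0.47 over the 136 pairs of S phase genes, 0.45 over the 253 pairs of mitosis genes and 0.33 over the 391 mixed pairs. All these values share the libraries and their size factors, so they describe the tumors and are given with no test. E2f1 was the exception, with a median correlation of -0.29 with the other 39 genes, and Bub1, a spindle checkpoint kinase, followed at -0.07. Cenpe, a kinetochore motor, had the highest median, at 0.57.

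**Figure D1:**
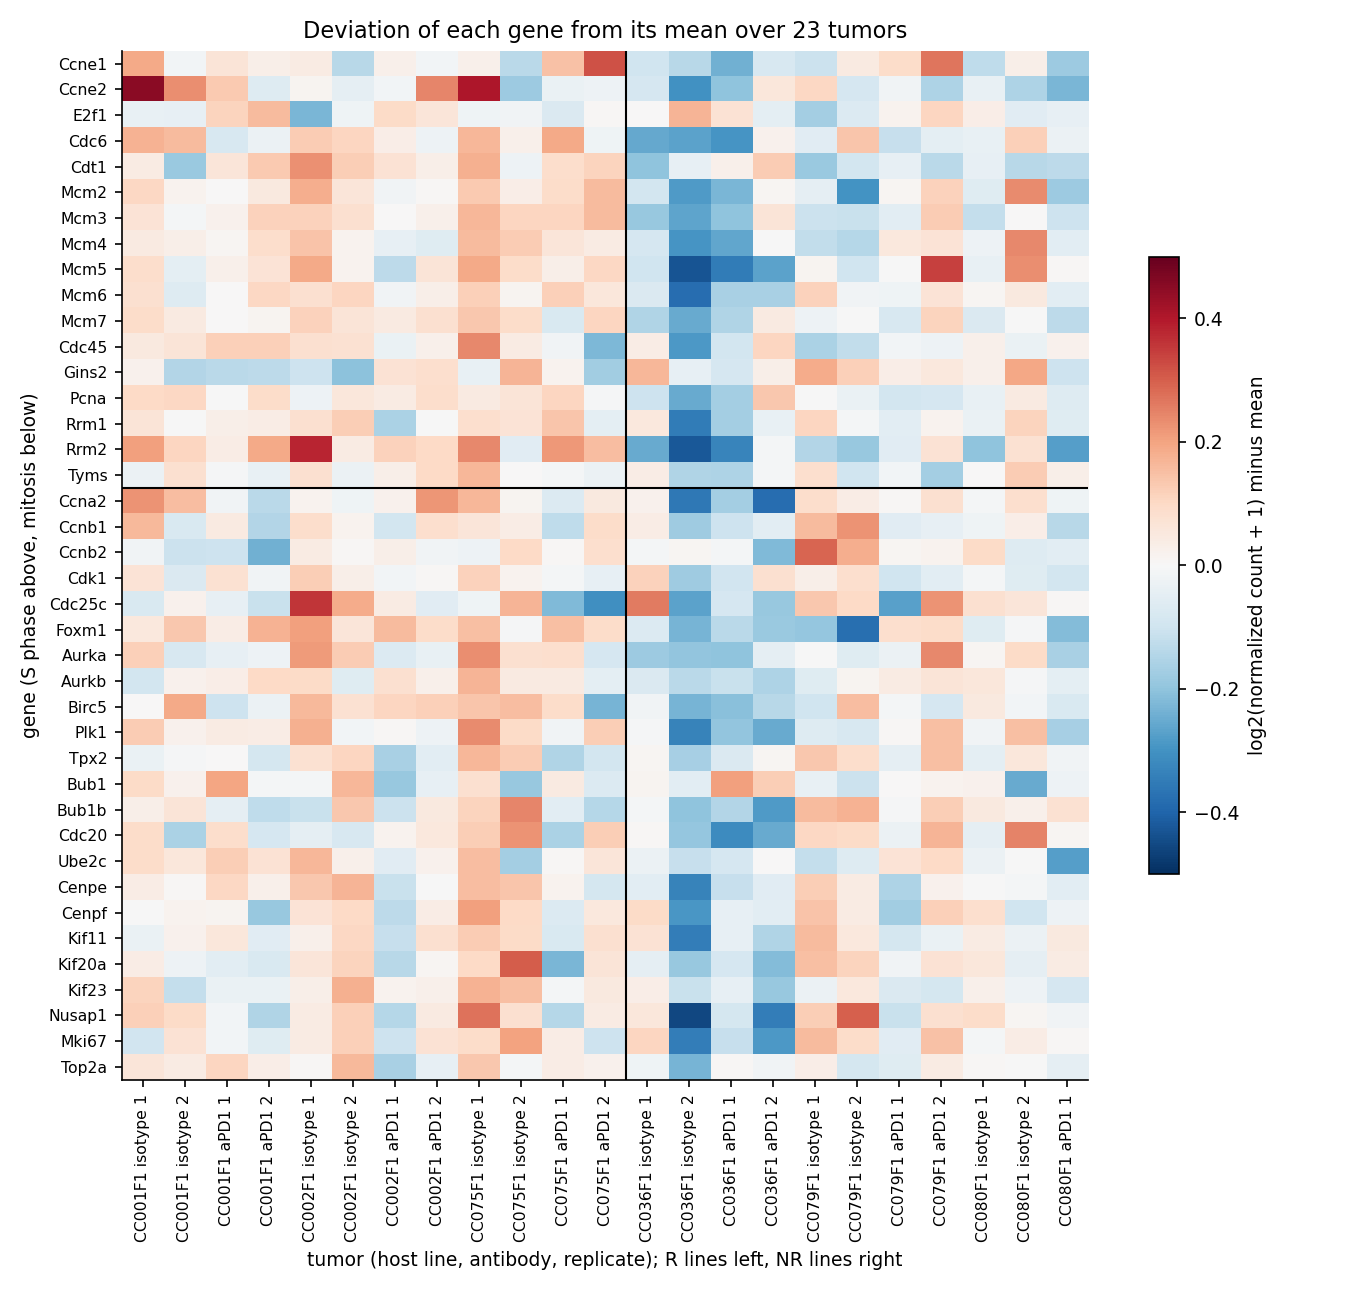
Each row is 1 of the 40 genes, 17 of S phase above the line and 23 of mitosis below it, and each column is 1 of 23 tumors, R lines on the left and NR lines on the right; color gives log2(normalized count + 1) minus the mean of the gene. The CC036F1 isotype 2 column is blue for most genes, and E2f1 does not follow the other rows.

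The first comparison asked whether the host line set the level of the cell cycle genes. Taking the mean of log2(normalized count + 1) over each list, CC036F1 tumors lay lowest for both. The 17 S phase genes averaged 11.604 ± 0.103 (SD, n = 4) in CC036F1 against 11.704 ± 0.080 (n = 3) in CC080F1, 11.710 ± 0.045 (n = 4) in CC079F1, 11.770 ± 0.035 (n = 4) in CC002F1, 11.777 ± 0.038 (n = 4) in CC001F1 and 11.795 ± 0.051 (n = 4) in CC075F1. The step from CC036F1 to CC080F1 lay between the SDs of these lines, the step from CC079F1 to CC002F1 was larger than both of their SDs, and the other neighbours differed by less than their SDs. The 23 mitosis genes averaged 11.974 ± 0.099 in CC036F1, 12.075 ± 0.041 in CC080F1, 12.093 ± 0.041 in CC001F1, 12.119 ± 0.053 in CC079F1, 12.122 ± 0.062 in CC002F1 and 12.130 ± 0.081 in CC075F1, and apart from the first step neighbours differed by less than their SDs. CC079F1 thus stood among the NR lines for the S phase genes and beside the R lines for the mitosis genes. In CC036F1 the 4 tumors spread from 11.49 to 11.73 for S phase and from 11.86 to 12.10 for mitosis, so tumors of this line overlapped those of the others. CC036F1 had the lowest line mean for 30 of the 40 genes, 12 of S phase and 18 of mitosis, and CC075F1 the highest for 15. The shares of all genes with their lowest or highest line mean there are not given. These counts are thus not read as particular to the 40 genes.

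**Figure D2:**
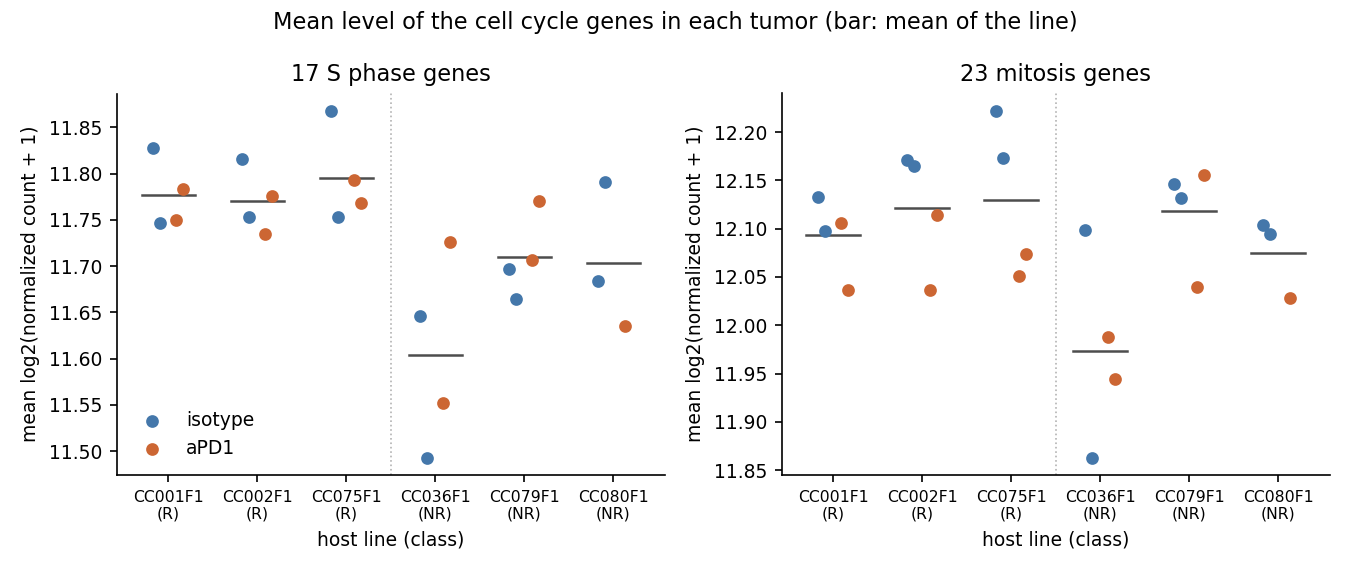
Points are single tumors, the vertical axis is the mean log2(normalized count + 1) over the 17 S phase genes (left) or the 23 mitosis genes (right), colors give the antibody and bars the mean of each line. The CC036F1 bar is lowest in both panels, at 11.60 and 11.97, and its points span 11.49 to 11.73 and 11.86 to 12.10.

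Across all genes, 16% of the 19192 with an adjusted p differed among the 6 lines at an adjusted p under 0.05 (DESeq2 likelihood ratio test with antibody in both models). Of the 40 genes, 7 did, which is near this share: Rrm2, Mcm6, Mcm5 and Mcm3 of S phase and Foxm1, Plk1 and Ccnb2 of mitosis. Rrm2, the regulated subunit of ribonucleotide reductase, had the smallest adjusted p, 0.00092, followed by Mcm6 (0.00416) and Mcm5 (0.00661), both subunits of the replicative helicase. Foxm1 (0.0117), Plk1 (0.0394), the kinase that drives mitotic entry, and Ccnb2 (0.0499), a B-type cyclin, were the mitosis genes, and Mcm3 stood at 0.00782 (DESeq2). The normalized counts of Mcm5 in the CC036F1 tumors were 5437 and 4319 with isotype and 4581 and 4839 with aPD1. The other 5 lines had means of 5972 to 6271, and of their 19 tumors only CC002F1 aPD1 1, at 5331, lay within the CC036F1 range, whose top was 5437. Mcm6 averaged 6603 ± 582 (SD, n = 4) in CC036F1 against line means of 7544 to 7944, and its 4 tumors there, at 5784 to 7161, lay below all 19 others, of which CC001F1 isotype 2 was lowest at 7201. Plk1 averaged 2306 ± 230 (n = 4) against 2625 to 2848.

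Ccnb2 did not follow this order. Its lowest line mean was in CC001F1, 2104 ± 133 (n = 4), and its highest in CC079F1, 2494 ± 239 (n = 4), where the isotype tumors held 2790 and 2585 and the aPD1 tumors 2294 and 2307. With CC036F1 left out, none of the 40 genes differed among the remaining 5 lines in DESeq2 (6 had an unadjusted p under 0.05), and without its isotype tumor 2 alone Foxm1, Rrm2 and Mcm3 remained. In edgeR Mcm5 and Rrm2 were called. The shares of all genes in these fits are not given here. The lower counts are thus not read as particular to the 40 genes.

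The second comparison set R against NR hosts. Rrm2 was the gene with the largest difference. Its normalized counts were 6996 and 6538 (isotype) and 6234 and 6920 (aPD1) in CC001F1, 7907 and 6248 then 6577 and 6498 in CC002F1, and 7178 and 5838 then 7048 and 6765 in CC075F1. Among NR hosts they were 5092 and 4530 then 4832 and 6030 in CC036F1, 5480 and 5329 then 5830 and 6391 in CC079F1, and 5286 and 6405 then 5022 in CC080F1. The groups overlapped between 5838 and 6405, with most R tumors above that range and most NR tumors below it. The fitted difference was 0.30 ± 0.06 (log2, SE) with a 95% interval of 0.18 to 0.42, or 1.23-fold, at an adjusted p of 4.98e-05 (DESeq2 Wald test with antibody as a term).

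Of the 40 genes, 9 were higher in R tumors and none lower, beside 14.4% of all 17643 genes called in either direction and 7.66% called higher in R. The S phase genes made up 7 of them and the mitosis genes 2. The fitted difference was above 0 for 36 of 40 genes, 15 of 17 S phase genes with a median of 0.11 and 21 of 23 mitosis genes with a median of 0.05, where 49.9% of all genes with an adjusted p lay above 0. Leaving out 1 tumor, the S phase median ranged from 0.088 to 0.128, and the mitosis median of 0.053 ranged from 0.023 to 0.070, with 0.023 both without CC036F1 isotype 2 and without all CC036F1 tumors. All 9 changes were small, from 0.10 to 0.30 on the log2 scale.

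**Figure D3:**
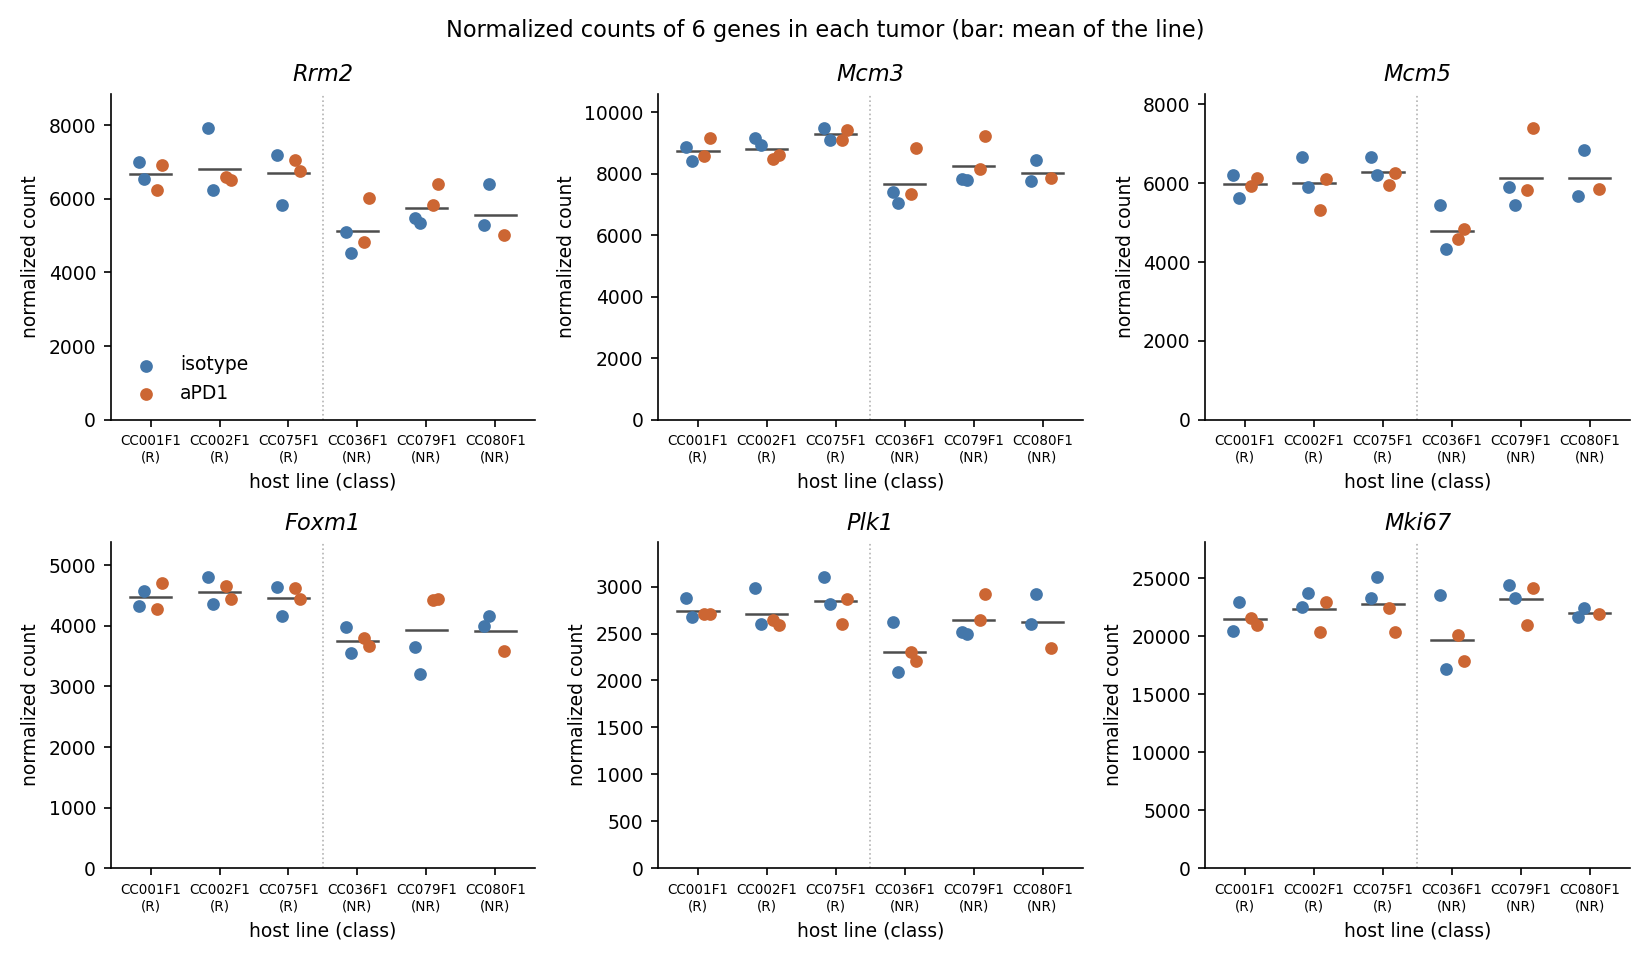
Each panel shows the normalized counts of 1 gene in each of the 23 tumors by host line, with isotype tumors in blue, aPD1 tumors in orange and the mean of the line as a bar; the vertical axes start at 0. Rrm2 and Foxm1 have higher bars in all 3 R lines than in all 3 NR lines, Mcm5 is low in CC036F1 (mean 4794), and Mki67 has its highest bar in an NR line, CC079F1.

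Among the G1/S regulators, Ccne2 ranged from 1216 to 1885 normalized counts (median 1379) in the 12 R tumors and from 1117 to 1481 (median 1300) in the 11 NR tumors. Its difference was 0.20 ± 0.07 (adjusted p = 0.0388, DESeq2), and the highest values were those of CC001F1 isotype 1, at 1885, and CC075F1 isotype 1, at 1826. Ccne1, the other cyclin E, differed by 0.09 ± 0.06 and was not called (adjusted p = 0.317, DESeq2). E2f1 differed by -0.01 ± 0.04, with a 95% interval of -0.09 to 0.08, and its line means lay between 1976 and 2087.

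Among the origin genes, Mcm3 ranged from 8400 to 9471 (median 9010) in R and from 7032 to 9235 (median 7839) in NR tumors. Only CC036F1 aPD1 2 (8845), CC079F1 aPD1 2 (9235) and CC080F1 isotype 2 (8456) among the NR tumors reached the R range. The difference was 0.16 ± 0.04 (adjusted p = 0.00176, DESeq2). Cdt1, which loads the helicase, differed by 0.15 ± 0.05 (adjusted p = 0.016), Cdc6 by 0.14 ± 0.05 (adjusted p = 0.0457) and Mcm7 by 0.12 ± 0.04 (adjusted p = 0.017, all DESeq2). The other helicase subunits had differences of the same size that were not called: 0.14 for Mcm2 (adjusted p = 0.0729, DESeq2), 0.10 for Mcm4, 0.11 for Mcm5 and 0.11 for Mcm6. Gins2, a subunit of the active helicase, had the lowest value of the 40, -0.09 ± 0.05 (adjusted p = 0.252, DESeq2).

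Pcna, the sliding clamp, ranged from 7347 to 8046 (median 7786) in R and from 6278 to 8206 (median 7137) in NR tumors, where 8206 belonged to CC036F1 aPD1 2. Its difference was 0.11 ± 0.04 (adjusted p = 0.026, DESeq2). The partner of Rrm2, Rrm1, differed by 0.07 ± 0.05 and thymidylate synthase, Tyms, by 0.06 ± 0.04, and neither was called.

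Of the mitosis genes, Foxm1 ranged from 4154 to 4806 (median 4511) in R and from 3210 to 4446 (median 3798) in NR tumors. The NR tumors within the R range were both CC079F1 aPD1 tumors, at 4427 and 4446, and CC080F1 isotype 2 at 4159. Its difference was 0.22 ± 0.05 (95% interval 0.13 to 0.31, adjusted p = 0.000181, DESeq2). Kif23, a kinesin of the midbody, was the other, at 0.10 ± 0.03 (adjusted p = 0.0291), with 3151 to 3871 in R and 3000 to 3553 in NR tumors. Plk1 stood just outside the threshold at 0.14 ± 0.05 (adjusted p = 0.0529), as did the Aurkb partner Birc5 at 0.125 ± 0.048 (adjusted p = 0.0588, DESeq2).

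The common proliferation markers were not called. Mki67 ranged from 20341 to 25120 (median 22471) in R and from 17183 to 24406 (median 21927) in NR tumors, a difference of 0.045 ± 0.055 with a 95% interval of -0.06 to 0.15. Top2a differed by 0.07 ± 0.04 and Ccnb1 by 0.030 ± 0.045. The intervals of the 23 mitosis genes ran from -0.14 to 0.31 and those of the 17 S phase genes from -0.19 to 0.42.

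For 18 of the 40 genes, 9 of each list, the means of all 3 R lines lay above those of all 3 NR lines, beside 16.3% of the 8423 genes at least as abundant as Cdc25c. The S phase genes of this kind were Ccne2, Cdc6, Cdt1, Mcm2, Mcm3, Mcm7, Cdc45, Pcna and Rrm2. Rrm2, Mcm3 and Foxm1 kept their call without any 1 tumor and under all 9 other settings. These included the line as a random effect, with a within-line correlation of 0.015 shared by all genes. With so low a value that fit stayed close to treating the tumors of a line as independent, as the main tests did. Without CC036F1, 5 of the 9 remained: Rrm2 at 0.25, Foxm1 at 0.19, Mcm3 at 0.13, and Cdt1 and Pcna. In edgeR 5 were called as well, Rrm2, Mcm3, Mcm7, Cdt1 and Foxm1.

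Within the isotype tumors, 4 genes were higher in R (5.53% of all genes were called in either direction and 2.29% higher in R). They were Rrm2 (0.34 ± 0.09, adjusted p = 0.00688), Mcm3 (0.22 ± 0.05, adjusted p = 0.00288), Mcm7 (0.17 ± 0.05, adjusted p = 0.0262) and Foxm1 (0.25 ± 0.07, adjusted p = 0.0125, all DESeq2). Mcm7 ranged from 7057 to 7500 in R and from 5735 to 6830 in NR isotype tumors, and Mcm3 overlapped in 1 tumor of each, R from 8400 and NR up to 8456. The Mcm7 call was lost without any 1 of 4 of the 12 tumors and under 6 of 9 other settings. Within the aPD1 tumors only Rrm2 was called, at 0.25 ± 0.08 (adjusted p = 0.0319, DESeq2), where 7.93% of all genes were called in either direction and 5.94% higher in R. Its counts there were 6234 to 7048 (median 6671) in R and 4832 to 6391 (median 5830) in NR tumors. The median difference over the S phase genes was 0.15 in isotype and 0.10 in aPD1 tumors, and over the mitosis genes 0.09 and 0.05. These medians moved when tumors of CC036F1 or of other lines were left out. Without CC036F1 isotype 2 the mitosis median in isotype tumors was 0.045. Among aPD1 tumors the S phase median was 0.054 without CC036F1 aPD1 1, and the mitosis median was 0.022 without CC036F1 aPD1 2, 0.029 without CC002F1 aPD1 2, 0.030 without CC001F1 aPD1 1 and 0.074 without CC079F1 aPD1 2. With all CC036F1 tumors left out, the S phase median was 0.089 with isotype and 0.054 with aPD1, and the mitosis median 0.036 and -0.004. In edgeR and in limma with a random effect of line none of the 40 was called in either. Of the 40, 18 and 16 had an unadjusted p under 0.05 in isotype tumors, and 2 and 3 in aPD1 tumors. Among all genes in DESeq2, 19.9% had such a p in isotype tumors and 19.3% in aPD1 tumors. The shares in edgeR and limma are not given here. Without CC036F1 Mcm3 alone was called in isotype tumors and none in aPD1 tumors, and the shares of all genes called in these fits are not given either.

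The third comparison set aPD1 against isotype. None of the 40 genes was called over all lines in DESeq2, beside 2.79% of all 16638 genes; 9 of them, all of mitosis, had an unadjusted p under 0.05, as did 14% of all these genes, and none was called in edgeR. The mitosis genes had fitted differences below 0 in 20 of 23 cases with a median of -0.07, and the S phase genes in 10 of 17 with a median of -0.01, where 50.2% of all genes lay below 0. Leaving out 1 tumor, the mitosis median ranged from -0.093 to -0.063, and the S phase median ranged from -0.029 without CC036F1 isotype 2 to 0.006 without CC036F1 isotype 1, so it took either sign. The lowest values were those of Cdc25c (-0.17 ± 0.07), Nusap1 (-0.15 ± 0.06), a spindle protein, and Bub1b (-0.11 ± 0.04), a checkpoint protein, with adjusted p values of 0.165, 0.163 and 0.145 (DESeq2). Mki67 stood at -0.085 ± 0.049, Ccnb1 at -0.099 ± 0.043 and Plk1 at -0.055 ± 0.048. Without CC036F1, Nusap1 passed the threshold, in a fit whose share of all genes called is not given here.

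By line, the mean over the mitosis genes with aPD1 minus that with isotype was below 0 in all 6 lines, at -0.015 in CC036F1, -0.041 in CC079F1, -0.045 in CC001F1, -0.071 in CC080F1, -0.092 in CC002F1 and -0.135 in CC075F1. The number of mitosis genes lower with aPD1 ranged from 14 to 20 of 23 over the lines. The mean over the S phase genes differed by -0.10 to 0.07, below 0 in 4 lines and above 0 in CC036F1 and CC079F1. Each of these values compares 2 tumors with 2, or with 1 in CC080F1, and was not tested by itself. The S phase mean minus the mitosis mean was -0.388 ± 0.057 (SD, n = 12) in isotype and -0.325 ± 0.066 (n = 11) in aPD1 tumors, in log2 units. By line this quantity was higher with aPD1 by 0.024 in CC001F1, 0.063 in CC002F1, 0.085 in CC036F1, 0.099 in CC079F1 and 0.105 in CC075F1, and it changed by -0.032 in CC080F1, also untested.

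In the R lines, 1 gene was called, Tpx2, which activates Aurka on the spindle, beside 5.26% of all genes called in either direction and 0.408% called lower with aPD1. With isotype its counts were 7809 and 7958 in CC001F1, 8436 and 8604 in CC002F1 and 8967 and 8721 in CC075F1. With aPD1 they were 8010 and 7516, 7144 and 7715, and 7194 and 7502 in the same lines. The groups overlapped only through CC001F1, and Tpx2 was lower with aPD1, at -0.171 ± 0.055 (log2, adjusted p = 0.0406, DESeq2). This call was lost in edgeR (adjusted p = 0.166), in the 10 deep R libraries, with depth as a term and without any 1 of 9 of the 12 tumors, and kept without CC001F1 isotype 1, CC001F1 isotype 2 or CC001F1 aPD1 1. Without CC001F1 aPD1 1 there were 4 genes called, Tpx2, Cenpf, Nusap1 and Cdc25c. This was the highest count, as fits without each tumor in turn gave 0 to 4. The share of all genes called without CC001F1 aPD1 1 is not given here. The count of 4 is thus not read as particular to the cell cycle genes. Over the lists, 21 of 23 mitosis genes lay below 0 with a median of -0.09 and 14 of 17 S phase genes with a median of -0.04, where 53.3% of all genes did. Leaving out 1 tumor, the mitosis median ranged from -0.110 to -0.079. The S phase median was -0.069 without CC075F1 isotype 2, -0.027 without CC002F1 isotype 1 and -0.021 without CC075F1 isotype 1.

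**Figure D4:**
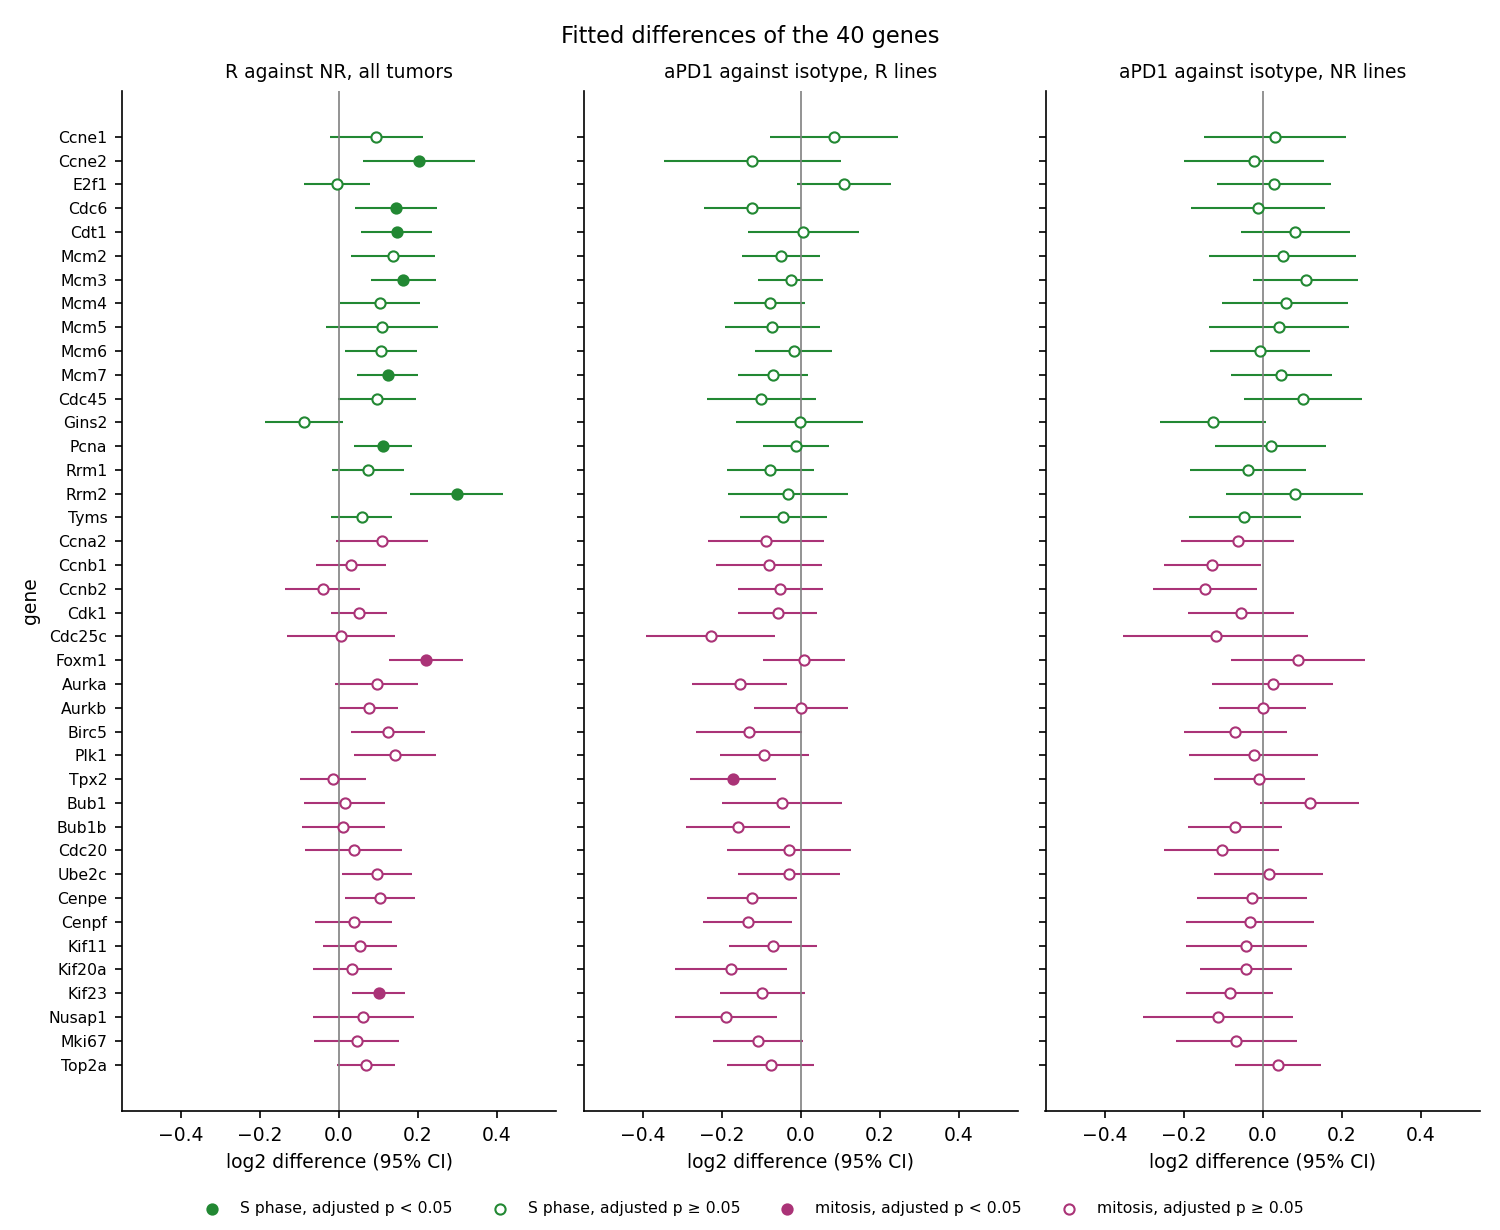
Points are fitted log2 differences of the 40 genes with 95% intervals, for R against NR over all tumors (left), aPD1 against isotype in R lines (middle) and in NR lines (right); green marks S phase and purple mitosis genes, and filled points passed an adjusted p of 0.05. Filled points stand for 9 genes in the left panel and for Tpx2 in the middle one.

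In the NR lines none of the 40 was called in DESeq2 or edgeR, beside 0.0448% of all 24552 genes; 2 had an unadjusted p under 0.05 in DESeq2, as did 5.36% of all these genes, and 1 in edgeR. Those of DESeq2 were the B-type cyclins, Ccnb1 at -0.127 ± 0.062 and Ccnb2 at -0.145 ± 0.067. The mitosis genes had a median of -0.04, with 18 of 23 below 0. The S phase genes had a median of 0.03, with 6 of 17 below 0. Of all genes 48.2% lay below 0, with a median of 0.009. The mitosis median was -0.096 without CC036F1 isotype 2, -0.026 without CC079F1 aPD1 1 and 0.000 without CC036F1 isotype 1. The S phase median ranged from 0.009 without CC079F1 aPD1 2 to 0.085 without CC080F1 aPD1 1, and also moved to 0.010 and 0.060 without CC036F1 aPD1 2 and 1, 0.016 without CC036F1 isotype 2 and 0.054 without CC080F1 isotype 2. Tpx2 stood at -0.01 ± 0.06 there, with 7122 to 8776 in isotype and 7605 to 8879 in aPD1 tumors. Whether the effect of aPD1 differed between the classes was tested directly. None of the 40 differed in DESeq2 or edgeR, beside 0.0342% of all 26342 genes, and 1 and 3 of them had an unadjusted p under 0.05, beside 6.65% of all genes in DESeq2. The one in DESeq2 was Tpx2, at -0.154 ± 0.075 for R minus NR (adjusted p = 0.729), so its change in R lines was not shown to differ from that in NR lines. The 95% intervals of the 40 differences ran from -0.39 to 0.33. The 3 antibody comparisons and the comparisons of classes use the same isotype tumors, so their values are given side by side and not as independent results.

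Other genes of the same pathways were read from lists of 38 more S phase genes, 38 more G2 and mitosis genes, 12 G1 cyclins, kinases and their activators, and 13 inhibitors. For R against NR, where 14.4% of all genes were called and 7.66% were higher in R, 9 of the 38 S phase genes were higher and none lower, with a median of 0.10 over the list. Fen1, the flap nuclease of Okazaki fragments, at 0.22 ± 0.06 and Gins4, a helicase subunit, at 0.21 ± 0.05 were the largest. Of the 38 G2 and mitosis genes 4 were higher and none lower, with a median of 0.06, led by Espl1, the protease that releases sister chromatids, at 0.19 ± 0.05 and Lbr at 0.18 ± 0.05. Of the G1 genes 4 of 12 were higher. E2f2, an activator of S phase genes, stood at 0.40 ± 0.06 (adjusted p = 1.94e-08, DESeq2) with 896 to 1186 normalized counts in R and 685 to 919 in NR tumors. Ccnd1, cyclin D1, followed at 0.27 ± 0.06 (adjusted p = 0.000118, DESeq2) with 34298 to 45231 in R and 27306 to 39333 in NR tumors. Of the inhibitors Btg2 (0.51 ± 0.12) and Rbl1 (0.10 ± 0.03) were higher and 11 were not called, among them Cdkn1a, which codes for p21.

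With aPD1 over all lines, Melk, a kinase of mitotic cells, was lower (-0.11 ± 0.04, adjusted p = 0.0489) and Btg2, an antiproliferative gene, higher (0.58 ± 0.10, adjusted p = 2.66e-05, both DESeq2). In R lines Melk ranged from 1571 to 1672 with isotype and from 1395 to 1535 with aPD1, and Btg2 from 273 to 408 and from 417 to 752. No other gene of the 4 lists was called over all lines, beside 2.79% of all genes. In R lines only Btg2 was called, beside 5.26% of all genes. Among the 6 lines 6 of the 38 S phase genes, 3 of the 38 mitosis genes, 6 of the 12 G1 genes and 3 of the 13 inhibitors were called, beside 16% of all genes. Fen1 (adjusted p = 3.57e-09) and Uhrf1 (6.65e-05) led the S phase list, Espl1 and Racgap1 the mitosis list, and Cdkn1a (0.00234), Myc (0.0402) and Ccnd1 (0.00688, all DESeq2) were among the rest. Cdkn1a and Myc had their highest line means in CC036F1, 2248 ± 376 and 7830 ± 1643 (n = 4). The other inhibitors called, Btg2 and Cdkn2c, had their lowest line means there, 289.9 ± 89.5 and 748.6 ± 135.5 (n = 4), with Btg2 in CC079F1 close by at 291.9 ± 54.1 (n = 4).

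Over all tumors the pan-leukocyte marker and most T and NK cell and macrophage markers were higher in R hosts, while other host cell markers were mixed. Of the 4 endothelial markers only Pecam1 was called, higher in R (0.525 ± 0.170, adjusted p = 0.0201, DESeq2). No B cell or granulocyte marker was called over all tumors. Ptprc, the pan-leukocyte gene CD45, held 5371 to 13888 normalized counts in R and 2447 to 6278 in NR tumors, and 5 of 6 T and NK cell markers were higher in R, with sums of 1151 to 6369 against 704 to 1742. In R lines the T and NK sums were 1243 to 2419 with isotype and 1151 to 6369 with aPD1. Macrophage markers summed to 54128 to 153395 in R and 44655 to 99693 in NR tumors, with 3 of 5 higher in R. Of the 5 fibroblast markers Dcn (-0.26 ± 0.10, adjusted p = 0.0486) and Pdgfra (-0.51 ± 0.15, adjusted p = 0.00766, both DESeq2) were lower in R, and the list summed to 31157 to 62381 in R and 28624 to 53831 in NR tumors. In CC036F1, Ptprc was 2447 to 4340, against 3783 to 13888 in the other 19 tumors. The range of CC079F1, another NR line, was 3783 to 4701 and overlapped that of CC036F1. The 4 endothelial markers summed to 1773 to 3373 in CC036F1 and to 3372 to 6003 in the other 19 tumors. Cdh1 averaged 437.4 ± 299.9 (n = 4) in CC036F1 and 187.2 ± 65.8 (n = 19) in the others, while Epcam, Krt8, Krt18 and Krt19 had lower means in CC036F1. Skeletal muscle markers ranged from 12.3 to 12669 in R and from 12.7 to 4999 in NR tumors. Among aPD1 tumors all 4 skeletal muscle markers were higher and all 4 B cell markers lower in R, as was the granulocyte gene S100a9 (-2.38 ± 0.62, adjusted p = 0.00405, DESeq2). The 3 granulocyte markers summed to 0 to 36.8 in all R and 4.3 to 120 in all NR tumors. Shisal2b, the MC38 marker, was not called in any of these comparisons. The part of the cell mixture in the differences of the 40 genes was not tested.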

How the data were processed

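RNA was sequenced from 23 MC38 tumors. The authors deposited a table of estimated counts per gene (expected counts, 16.95% of values not whole), made from paired poly(A) reads aligned with Bowtie 1.2.3 to transcriptomes of the Collaborative Cross founder strains and quantified over founder haplotypes by EMASE in the gbrs package, with GENCODE genes on GRCm38. Counts were rounded, and the total of a library moved by at most 66.6. Names came from a GENCODE release in which 26681 of 26869 ids matched. The 40 genes, the other lists and the tests were chosen with earlier results of these data known.

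Groups came from line and antibody in the labels, and the class of a line from the text of the study. The labels call tumors of a group biological replicates. Genes with at least 5 counts in all were tested with DESeq2 1.42.0 in R 4.3.3 (Wald test, or likelihood ratio test among lines), with Benjamini-Hochberg adjustment over all genes with an adjusted p and a threshold of 0.05. The model of class over all tumors and that of lines held antibody as a term, and models of antibody held line. Tests of class treated the tumors of a line as independent, although the class belongs to the line. Alternatives were edgeR 4.0.16 (quasi-likelihood), limma 3.58.1 (voom, line as a random effect), TMM size factors, another filter, deep libraries only, depth as a term, a replicate block, counts summed per line and antibody, and leaving out each tumor. Over all tumors a line thus entered the summed counts once for each antibody. Leaving out CC036F1 was added after seeing the data. The code was tested on simulated counts. Named genes were up to 3 called S phase and 3 called mitosis genes with the largest change in each direction (the smallest adjusted p among lines), 10 genes chosen by name (Mki67, Top2a, Ccnb1, Plk1, Foxm1, Pcna, Mcm2, Rrm2, Ccne1, E2f1), Cdkn1a, Ccnd1 and Myc, and the 2 called genes of each other list with the largest change. Others named were chosen after their values were seen. Promoters were searched 250 bases upstream.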

Additional observations from a re-analysis of the deposited data

Results flagged for a closer look

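In groups of 4 to 10 tumors, 168 sets of values (each of the 40 genes and the list means, by class and antibody) were searched for a tumor far from the others by the gap of Dixon's test at its 95% value, and 9 were found, where chance gives about 5%. No explanation was tested for them. CC036F1 isotype 2 was low among NR isotype tumors for Rrm1 (7014 normalized counts, next 8735), Ccna2 (5554, next 7057) and the mean of the mitosis genes (11.86, next 12.09). CC036F1 aPD1 2 was high among NR aPD1 tumors for Cdk1 (4964, next 4529). CC075F1 isotype 1 was high among R isotype tumors for Cdc45 (2199, next 1971) and Nusap1 (3094, next 2783), and CC075F1 aPD1 1 was high among R aPD1 tumors for Aurka (2741, next 2540). CC002F1 isotype 1 was low among R isotype tumors for E2f1 (1720, next 1957), and CC002F1 aPD1 1 was low among R aPD1 tumors for Mcm5 (5331, next 5934).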

How the results depend on the processing

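For Rrm2, Ccne2, Mcm3, Mcm7, Foxm1, Kif23 and Tpx2, the called genes rerun under the other settings, no direction reversed. The number of the 40 genes called for R against NR over all tumors was 9, and 5 both in edgeR and without CC036F1. In isotype tumors it was 4, then 2 with counts summed per line, 1 in deep libraries, 1 without CC036F1, and 0 in edgeR and in limma. In aPD1 tumors it was 1, then 0 with counts summed per line, in edgeR, in limma and without CC036F1. For aPD1 against isotype it was 0 over all lines, then 1 without CC036F1, and 1 in R lines, then 0 in deep libraries, with depth as a term, in edgeR and with the replicate block. Among lines it was 7, then 2 in edgeR and 0 without CC036F1. The shares of all genes called under these other settings are not given, so lower counts are not read as particular to the 40 genes. Leaving out 1 tumor gave 6 to 11 genes for R against NR over all tumors, 2 (without CC002F1 isotype 1) to 7 (without CC075F1 isotype 2) in isotype tumors and 0 to 2 in aPD1 tumors. It gave 0 to 2 for aPD1 over all lines, 0 to 4 in R lines (4 without CC001F1 aPD1 1), 0 in NR lines and for the difference between classes, and 3 (without CC036F1 isotype 2) to 10 among lines. Over all tumors, Ccne2 lost its call without any 1 of 12 tumors and under 6 of 9 other settings, Kif23 without 4 and under 3; in aPD1 tumors Rrm2 lost it without any 1 of 8 of 11. The cause was not tested. In deep libraries the median of the mitosis genes for R against NR was 0.10, against 0.05 in all. The replicate numbers showed no pairing common to all groups. The correlation of deviations over 55 pairs of groups had a median of -0.009 and ran from -0.404 to 0.368, with 14 over 0.1. This check of 11 groups cannot exclude a batch shared by some of them. A replicate block gave 8 genes for R against NR in the whole set, 4 among isotype tumors, 1 among aPD1 tumors, 7 among lines, and Tpx2 in R lines at an adjusted p of 0.0698 (DESeq2).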
